A study of Rattus norvegicus with 21 samples.

Results

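The comparison described here sets the islets of the 3 rats with the clearest hyperglycemia after partial pancreatectomy against those of sham-operated rats, gene by gene. Its members are the 3 pancreatectomy (PX) libraries whose sample title gives a blood glucose value (BG, an average before sacrifice per the labels, without a unit) of 140 or more and all 10 sham libraries, so 13 of the 21 libraries of the series. All are polyadenylated RNA of islets of Langerhans, where the pancreas makes its hormones, from rats of the inbred Lewis strain, collected 4 weeks after surgery. In PX animals 90% of the pancreas had been removed, and sham animals had a sham operation. Per the titles, PX 41 had a BG of 156, PX 57 of 140 and PX 65 of 174. The sham animals lay between 82 and 104 (94.7 ± 6.001, SD, n = 10). The lowest value that met the rule was thus 140, in PX 57, and the highest PX value that did not was 121, in PX 36. The other 8 PX libraries, of BG 121 or less, are used below only to show where the 3 differ from them. Animals are named by the number in their title. The labels state no sex, give an age only as a range of weeks that may refer to the time after surgery, and do not say beyond that number that libraries came from separate animals, so a p-value here rests on the spread among these libraries.

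Beta cells take up glucose through a transporter and metabolise it, close ATP-sensitive potassium channels, open calcium channels and release insulin by exocytosis. A small set of transcription factors keeps them in this state, and they hold down a group of housekeeping genes, such as lactate dehydrogenase A, that most other cells use. Partial pancreatectomy is a classical rat model in which the few beta cells left meet the demand of the whole animal. Sustained high glucose is known for a gradual loss of beta cell identity and for stress and immune responses in islets.

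The 13 libraries held 4695195 to 13187959 counts on named genes, and levels are given as CPM, counts scaled to a common library total after correction by TMM factors (trimmed mean of M-values). Isolated islets carry other pancreatic cells, and PX 65 stood apart in this: genes of the enzyme-secreting acinar cells took 11.2, 18.9 and 51.8% of the counts of PX 41, 57 and 65 against a lowest, median and highest sham of 0.658, 9.84 and 24.2%. These groups overlapped (exact permutation test of the means, two-sided, adjusted p = 0.143). The TMM factor of PX 65, 0.375, raises each of its CPM values by 2.67 times, against 0.790 to 1.21 times in the other 12 libraries, and all its values below rest on that factor. Within sham, numbers 21, 22, 24, 73 and 74 had 0.658 to 6.34% acinar counts and numbers 46 to 50 had 13.3 to 24.2%, so sham 46 to 50 served as a comparison group of nearer acinar share. Sham 46 was unlike the other sham libraries in many of the genes named below. Markers of macrophages summed to 686, 367 and 1135 CPM in PX 41, 57 and 65 against 53.3 to 161 CPM in sham, and markers of stellate cells, fibroblasts and pericytes to 2930.3, 1001 and 1773 CPM against 316 to 978 CPM. For both, every PX library lay above every sham library (adjusted p = 0.0149 for each, exact permutation tests adjusted over 17 library measures, with a smallest possible unadjusted p of 0.0035). In such bulk samples, fewer cells of a type and less RNA per cell cannot be told apart. The part of these other cells in each gene's difference was not tested, except where a fit with an acinar score as a covariate is given.

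**Figure D1:**
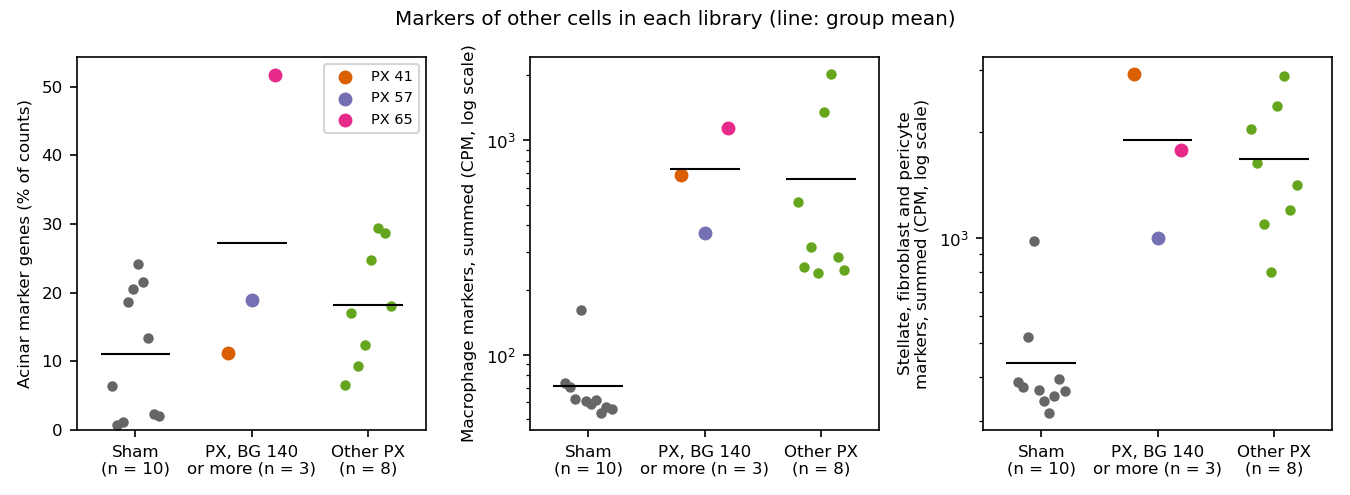
Percent of counts on acinar marker genes and summed CPM of macrophage and of stellate cell, fibroblast and pericyte markers in each library (points; lines are group means; the last 2 axes are logarithmic). PX 65 stands alone at 51.8% acinar counts, while for the other 2 measures all 3 PX libraries lie above the 10 sham libraries.

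Against sham, 2150 of 13801 genes tested were higher in the 3 PX libraries and 2668 were lower (edgeR's quasi-likelihood test, Benjamini-Hochberg adjusted p of 0.05 or less), which is 15.6% and 19.3% of the genes. The 3 PX libraries were all above the highest sham value for 7.59% of the genes and all below the lowest for 8.17%. Genes of macrophages, complement, extracellular matrix and tissue injury rose, and several islet regulators and many genes of calcium entry and exocytosis fell, while the insulin genes did not pass the test. Without PX 65 there were 1193 genes higher and 1071 lower, and 2231 of the 4818 calls were kept. Fitting an acinar score alongside the group gave 1182 and 1121, and the fit against sham 46 to 50 alone gave 913 and 590. Across these settings and the loss of PX 41 or PX 57 in turn, 1337 of the 4818 genes kept their call, 805 of them higher and 532 lower. Without sham 46 the counts were 2585 higher and 3260 lower, and against sham 21, 22, 24, 73 and 74 alone they were 2678 and 3258. Scaling by DESeq2 size factors gave 2509 higher and 2060 lower, and scaling by library totals 662 and 2913, and totals alone moved the median log2 fold change of all genes from -0.08 to -0.57.

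**Figure D2:**
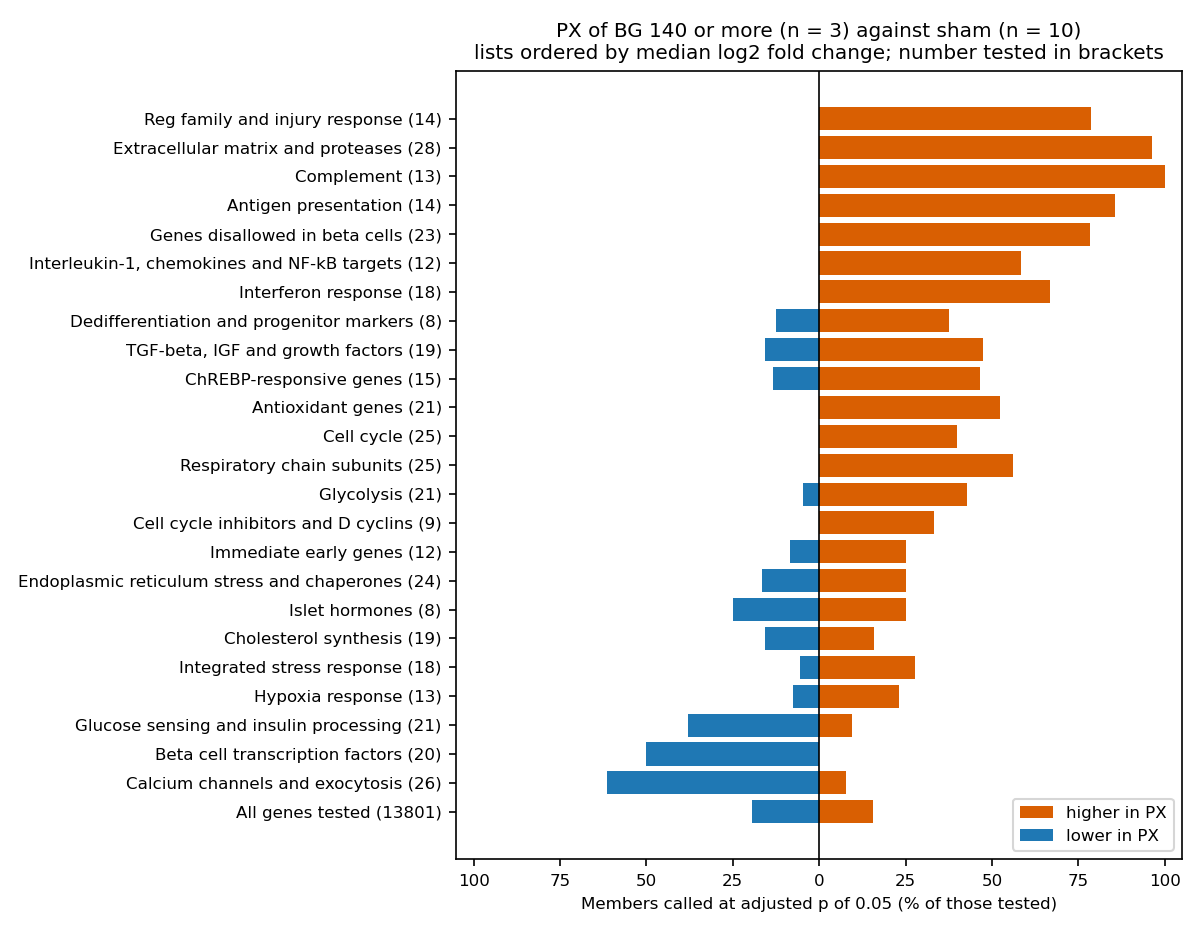
Share of the tested members of 24 gene lists called higher (right) or lower (left) in the 3 PX than in the 10 sham libraries, in percent, ordered by the list's median log2 fold change, with all 13801 genes at the bottom. Complement reaches 100% higher, and calcium channels and exocytosis extend furthest to the lower side.

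Among the islet hormones, 8 of 9 were tested, of which 2 rose, 2 fell and 4 did not pass the test (median log2 fold change 0.19, against -0.08 over all genes). Ins1, one of the rat's pair of insulin genes, was at 68998, 154852 and 49381 CPM in PX 41, 57 and 65 against a lowest, median and highest sham of 43067, 81545 and 121140.0 CPM. PX 57 lay above every sham library and the other two lay within the sham range, and the log2 fold change was 0.09 ± 0.32 (SE; edgeR adjusted p = 0.844). Ins2, the other, was at 17429, 32920.5 and 10183 CPM against 9587, 17020.3 and 25407 CPM (0.29 ± 0.30, adjusted p = 0.483). Both insulin genes share nearly identical sequence, so their split is uncertain, and together they took 10.4, 15.5 and 2.24% of the counts against 7.54 to 16.2% in sham. Gcg, which encodes glucagon, the hormone of alpha cells, was at 12335, 13586 and 6500.4 CPM against 5970.0, 10398 and 21636 CPM (-0.27 ± 0.38, adjusted p = 0.604), and Ppy, pancreatic polypeptide, had a log2 fold change of 0.65 ± 0.30 (adjusted p = 0.102). Ppy passed the test without PX 41 (0.91, adjusted p = 0.0349) or without sham 21 (0.80, adjusted p = 0.0200), and stood at 0.23 without PX 65.

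Iapp, the amyloid peptide secreted with insulin, was at 18365, 36468 and 35227 CPM against a lowest, median and highest sham of 12051, 16322 and 28079.5 CPM. It rose by 0.76 ± 0.23 on the log2 scale (edgeR adjusted p = 0.0188), with PX 41 inside the sham range, and lost the call without PX 65 (0.63, adjusted p = 0.113) or without PX 57 (0.60, adjusted p = 0.103). Sst, somatostatin, the delta cell hormone that restrains insulin and glucagon release, was at 497, 563 and 301 CPM against 428, 1081 and 1300.3 CPM. The 3 PX libraries lay below all sham libraries except sham 46, which held the lowest sham value, and the log2 fold change was -1.15 ± 0.28 (adjusted p = 0.00575; -0.92 and 0.0512 without PX 65). The other calls were of low-level hormones: Pyy, peptide YY, rose by 0.94 ± 0.33 and Ghrl, ghrelin, had a log2 fold change of -1.59 ± 0.58, and both lost the call without PX 65 (adjusted p = 0.319 and 0.084).

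Of the beta cell transcription factors, 10 of 20 tested members fell and none rose, and for 9 of the 20 all 3 PX libraries lay below every sham library (median log2 fold change -0.64). Without PX 65, 9 fell, and 8 of the 10 kept their call in all 5 of the settings above. Nkx6-1, which holds beta cells apart from the alpha cell fate, was at 48.05, 66.5 and 31.7 CPM in PX 41, 57 and 65 against 85.3, 118 and 155 CPM as lowest, median and highest sham. Its groups did not overlap, and its log2 fold change was -1.27 ± 0.22 (adjusted p = 4.28e-04). Rfx6, a factor needed for islet formation and for insulin secretion in adults, was at 57.6, 86.5 and 56.8 CPM against 99.8, 147 and 179.8 CPM (-1.12 ± 0.17, adjusted p = 2.03e-04). Myt1, a zinc-finger factor of endocrine cells, was at 72.2, 58.6 and 40.6 CPM against 112, 141 and 162 CPM (-1.28 ± 0.17, adjusted p = 3.65e-05), and PX 65 was the lowest of the 3 for each of Nkx6-1, Rfx6 and Myt1. Tshz1, a zinc-finger factor, fell less (-0.98 ± 0.17, adjusted p = 5.42e-04), again without overlap.

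Pdx1, a regulator of the insulin gene and of beta cell survival, was at 48.7, 77.6 and 38.99 CPM against 49.04, 71.8 and 98.7 CPM, with PX 57 near the middle of the sham range (-0.41 ± 0.20, adjusted p = 0.122). Mafa, an activator of insulin transcription that marks mature beta cells, was at 104.9, 181 and 66.3 CPM against 102.7, 145 and 215 CPM, and PX 65 alone lay below the sham range (-0.40 ± 0.26, adjusted p = 0.237). Neither passed the test, which does not show that they were unchanged. Without PX 57, the PX library of highest level for both, Pdx1 and Mafa fell by 0.74 and 0.86 on the log2 scale and both passed (adjusted p = 0.0176 and 0.0252), whereas without PX 65 the values were -0.22 and -0.12.

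**Figure D3:**
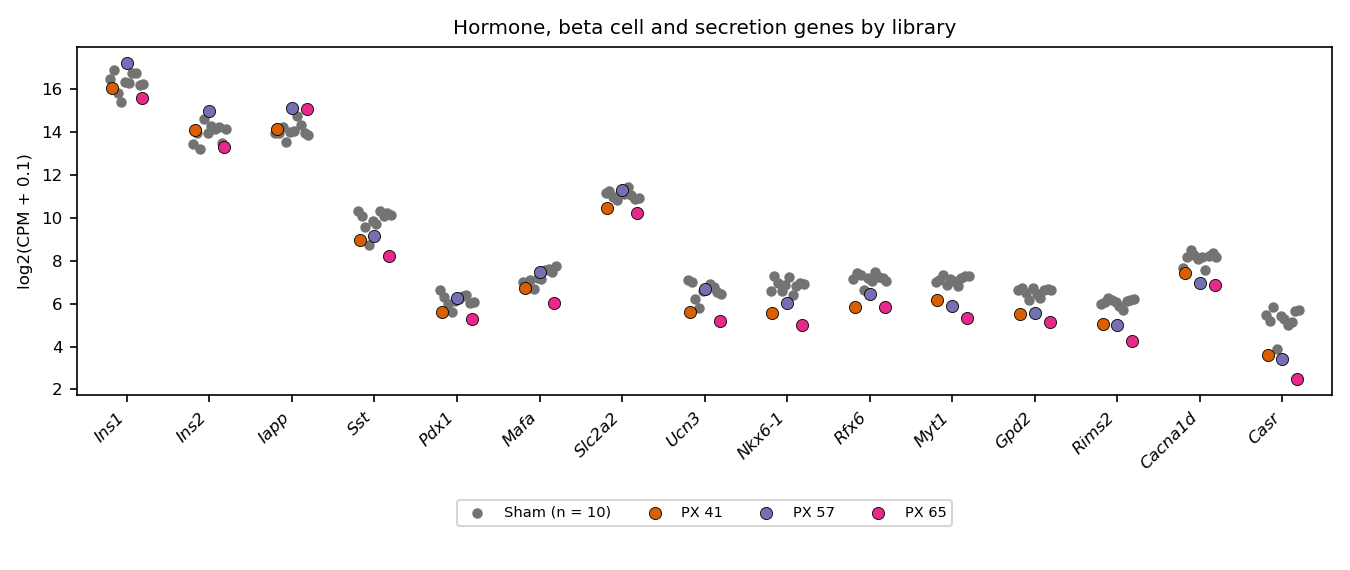
Levels of 15 hormone, beta cell and secretion genes in each library, as log2(CPM + 0.1), with sham in grey and the 3 PX libraries in colour. The insulin genes overlap between groups, whereas for Nkx6-1, Rfx6, Myt1, Gpd2, Rims2, Cacna1d and Casr every PX library lies below every sham library.

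In the list of glucose sensing and insulin processing, 8 of 21 members fell and 2 rose (median -0.60), and without PX 65 only 2 fell and 2 rose. Slc2a2, the beta cell glucose transporter GLUT2, was at 1432, 2525 and 1193 CPM against 1844, 2204 and 2830.3 CPM. PX 57 lay within the sham range and the other 2 below it, and the difference did not pass the test (-0.36 ± 0.20, adjusted p = 0.167). The same order held for Ucn3, a peptide of mature beta cells, at 49.1, 102.8 and 36.4 CPM against 56.1, 98.9 and 140.0 CPM (-0.68 ± 0.29, adjusted p = 0.078). Without PX 57 both passed the test, at -0.74 and -1.24 (adjusted p = 0.00749 and 0.00506), and without PX 65 they stood at -0.15 and -0.41. Ucn3 also passed without sham 46 (-0.75, adjusted p = 0.0323). Gpd2, the mitochondrial end of the glycerol phosphate shuttle that passes glycolytic electrons to the respiratory chain, fell in every PX library, to 46.1, 46.7 and 35.4 CPM against 71.2, 99.4 and 105.9 CPM (-1.13 ± 0.15, adjusted p = 4.39e-05). Gjd2, the gap junction protein that couples beta cells electrically, also lay below the whole sham range, at 69.2, 99.4 and 55.8 CPM against 108.8, 115 and 154 CPM (-0.70 ± 0.16, adjusted p = 0.00378). Glp1r, the receptor of the incretin GLP-1, and Abcc8, the sulfonylurea receptor of the ATP-sensitive potassium channel, had log2 fold changes of -0.84 ± 0.21 and -0.64 ± 0.17 (adjusted p = 0.00728 and 0.0103). Both overlapped with sham and lost the call without PX 65 (-0.58 and -0.46).

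Among genes of calcium entry, membrane potential and exocytosis, 16 of 26 fell and 2 rose (median -0.66), with 9 falling and 1 rising without PX 65. Casr, the calcium-sensing receptor, was at 12.2, 10.6 and 5.46 CPM against 14.7, 40.4 and 56.9 CPM, and its lowest sham value was that of sham 46 (-2.08 ± 0.34, adjusted p = 3.91e-04). Rims2, a scaffold that docks insulin granules beside calcium channels, was at 32.995, 31.7 and 19.4 CPM against 52.8, 68.9 and 76.6 CPM (-1.26 ± 0.16, adjusted p = 3.80e-05). Cacna1d, an L-type calcium channel pore, was at 171, 125 and 116 CPM against 189, 292 and 359.5 CPM (-1.04 ± 0.19, adjusted p = 6.99e-04). None of these 3 genes overlapped between the groups.

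Genes that beta cells normally keep low, the disallowed genes, moved the other way. Of 23 tested, 18 rose and none fell, 13 had every PX library above every sham library, and the median log2 fold change was 1.08. Without PX 65, with the acinar covariate and against sham 46 to 50, 14, 14 and 11 rose. Ldha, which turns pyruvate into lactate, was at 19.8, 16.1 and 34.8 CPM in PX 41, 57 and 65 against 1.78, 3.04 and 6.12 CPM (2.74 ± 0.29, adjusted p = 4.04e-06). Mgst1, a microsomal glutathione transferase, was at 24.02, 19.9 and 37.8 CPM against 1.60, 3.16 and 4.11 CPM (3.18 ± 0.23, adjusted p = 1.03e-07). Cd302, a C-type lectin receptor, and Arhgdib, a GTPase inhibitor typical of blood cells, had log2 fold changes of 2.37 ± 0.25 and 2.22 ± 0.23 (adjusted p = 3.88e-06 and 3.94e-06). Many cell types besides islet cells express genes of this list, and 1 of the 23, Pdgfra, also stands in a cell marker list. The summed macrophage and stellate markers given above rose in the same libraries, and their part in these differences was not tested.

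The markers of dedifferentiation and progenitor state gave 3 rises and 1 fall among 8 tested, and only 1 rise and no fall without PX 65. Aldh1a3, a retinaldehyde dehydrogenase known for its rise in failing beta cells, was at 34.7, 16.6 and 27.1 CPM against 1.78, 3.33 and 24.5 CPM. Sham 46 held the highest sham value, above PX 57, and the log2 fold change of 2.14 ± 0.58 (adjusted p = 0.0134) became 2.11 with an adjusted p of 0.0536 without PX 65. Vim, vimentin, the intermediate filament of mesenchymal cells, was at 161, 77.3 and 173 CPM against 16.6, 20.4 and 38.1 CPM (2.61 ± 0.22, adjusted p = 5.10e-07). Hes1, a Notch target, and Bach2, a repressor, had smaller differences of 0.79 ± 0.29 and -0.84 ± 0.27, which lost the call without PX 65 (adjusted p = 0.236 and 0.137). The other 5 members were not tested: Neurog3, Nanog and Pou5f1 stood at 0 CPM in the PX mean, while Sox9, also a duct cell factor, averaged 1.76 CPM in PX against 0.266 CPM in sham, and Cck 0.277 against 0.0642 CPM.

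Genes that respond to glucose through the factor ChREBP gave 7 rises and 2 falls among 15 tested (median 0.66), and 2 rises and no fall without PX 65. Txnip, an inhibitor of thioredoxin that is strongly induced by glucose in beta cells, was at 235, 387 and 1347 CPM against 71.1, 134 and 303 CPM. Among these 13 libraries PX 65 was more than 3 times as high as the next, and PX 41 lay within the sham range. The log2 fold change of 2.12 ± 0.47 (edgeR adjusted p = 0.00501) fell to 1.05 without PX 65 (adjusted p = 0.115). Before scaling, the other 8 PX libraries held 775 to 5418 Txnip counts, and PX 41, 57 and 65 held 1543, 3173 and 6665. Tkt, transketolase, had the tighter difference, at 165, 161 and 184 CPM against 84.2, 99.5 and 128 CPM (0.71 ± 0.12, adjusted p = 4.72e-04). Gpd1, the cytosolic partner of Gpd2, was at 11.3, 14.3 and 38.4 CPM against 4.59, 5.65 and 11.6 CPM (1.67 ± 0.31, adjusted p = 8.92e-04; 0.95 without PX 65), and Klf10, a glucose-responsive repressor, rose by 0.66 ± 0.17 (adjusted p = 0.00711).

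In glycolysis, 9 of 21 genes rose and 1 fell (median 0.52, which becomes -0.05 when libraries are scaled by totals, against -0.57 for all genes). Hk1, Hk2, Ldha and Slc16a1 also stand in the list of disallowed genes above. Apart from Ldha the named members were at low levels. Hk2, the high-affinity hexokinase that mature beta cells lack, was at 13.2, 4.03 and 6.47 CPM against 0.793, 1.46 and 2.84 CPM (2.25 ± 0.34, adjusted p = 1.75e-04), and every PX library lay above every sham library. Slc16a1, a monocarboxylate transporter, and Pfkfb3, an activator of phosphofructokinase, rose by 1.57 ± 0.36 and 1.58 ± 0.40 (adjusted p = 0.00402 and 0.00653), with overlap between the groups and no call without PX 65. Without that library, 4 of the 21 rose and none fell.

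Subunits of the respiratory chain rose in 14 of 25 tested cases and fell in none, but 2 rose without PX 65, 2 with the acinar covariate and none under library totals, where the median of 0.52 became -0.06. Ndufa2 and Ndufa4, accessory subunits of complexes I and IV, were the clearest. Ndufa2 was at 31.5, 46.7 and 50.5 CPM against 12.1, 20.4 and 27.3 CPM (1.02 ± 0.20, adjusted p = 0.00145), and Ndufa4 at 52.3, 102.5 and 98.4 CPM against 22.7, 41.1 and 55.98 CPM (1.06 ± 0.22, adjusted p = 0.00235). The share of counts on the mitochondrial genome's own genes was 3.04, 3.09 and 1.39% in PX 41, 57 and 65 against a lowest, median and highest sham of 1.42, 4.59 and 6.24%, where sham 46 was the lowest (exact permutation test, adjusted p = 0.0966).

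Endoplasmic reticulum stress genes and chaperones split, with 6 of 24 up, 4 down and 14 not called (median 0.25, or -0.26 under library totals). Wfs1, a membrane protein whose loss causes diabetes, was at 64.6, 74.2 and 54.4 CPM against 95.4, 122 and 134 CPM (-0.88 ± 0.13, adjusted p = 1.47e-04). Ern1, the IRE1 sensor of unfolded protein, was at 124, 98.3 and 92.3 CPM against 150.3, 185 and 206 CPM (-0.78 ± 0.13, adjusted p = 3.93e-04), and neither gene overlapped between the groups. Dnajb11, a co-chaperone of BiP, was the riser of lowest p (0.79 ± 0.15, adjusted p = 0.00117), and sham 46 was the highest sham. Without PX 65, 1 gene of this list rose and 2 fell. In the integrated stress response, 5 of 18 rose and 1 fell (median 0.04). Cebpb, an inflammatory and stress factor, had a log2 fold change of 1.17 ± 0.26 (adjusted p = 0.00344), and Vldlr, a lipoprotein receptor, of -0.63 ± 0.14 (adjusted p = 0.00313). These 2 were the calls of that list that remained without PX 65.

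Antioxidant genes rose in 11 of 21 cases and fell in none (median 0.64, and 0.05 under library totals), with 6 rising without PX 65. Hmox1, heme oxygenase, was at 61.6, 23.7 and 9.90 CPM in PX 41, 57 and 65 against 0.638, 1.76 and 5.35 CPM, and here PX 65 was the lowest of the 3 (3.97 ± 0.44, adjusted p = 1.33e-05). Gpx1, the main glutathione peroxidase, was at 71.01, 76.1 and 181 CPM against 10.99, 18.4 and 34.2 CPM (2.57 ± 0.29, adjusted p = 1.71e-05), and Gpx2, its epithelial relative, at 10.9, 20.5 and 5.66 CPM against 0.479, 1.68 and 2.19 CPM (3.03 ± 0.34, adjusted p = 8.47e-06). Prdx1, a peroxiredoxin, rose by 1.40 ± 0.19 (adjusted p = 5.36e-05), and for all 4 of these every PX library lay above every sham library. Slc7a11, the cystine importer, rested on PX 65, at 15.2, 9.88 and 75.6 CPM against 4.10, 8.53 and 11.999 CPM (1.97 ± 0.45, adjusted p = 0.00466; 0.57 and 0.264 without it).

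Of 12 immediate early genes, 3 rose and 1 fell. Junb rose by 0.95 ± 0.21 (adjusted p = 0.00364), and Nr4a1, an orphan receptor induced by calcium, was at 34.7, 12.7 and 14.3 CPM against 37.4, 58.9 and 119.5 CPM (-1.66 ± 0.39, adjusted p = 0.00511). Cell cycle genes rose in 10 of 25 cases and fell in none (median 0.53, or -0.01 with none rising and 1 falling under library totals), with 5 rising without PX 65. Mcm3, part of the replicative helicase, was at 10.6, 11.5 and 16.8 CPM against 3.20, 3.87 and 10.05 CPM (1.42 ± 0.28, adjusted p = 0.0015), and Ccnb1, cyclin B1, at 11.9, 10.98 and 18.6 CPM against 3.14, 6.76 and 7.97 CPM (1.13 ± 0.25, adjusted p = 0.00315). Which cells carried them was not tested. Among cell cycle inhibitors and D cyclins, 3 of 9 rose, led by Gadd45b, a growth arrest and DNA damage gene (1.71 ± 0.37, adjusted p = 0.0026).

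Genes of antigen presentation rose in 12 of 14 tested cases, and for 11 the groups did not overlap (median 1.46). The class II genes of the rat major histocompatibility complex present peptides to helper T cells, and their promoters are known for an X box and a Y box read together by one regulatory complex with the coactivator CIITA. Because 4 class II genes rose together, their promoters are shown: bases 130 to 21 before the RefSeq gene start on chromosome 20 of the GRCr8 assembly, 5′ to 3′ on the gene's own strand, with capitals for one spelled X box form, GCAACNGATG, and for the Y box core, ATTGG, on the strand shown.
RT1-Da (chr20:4515285-4515394, plus strand): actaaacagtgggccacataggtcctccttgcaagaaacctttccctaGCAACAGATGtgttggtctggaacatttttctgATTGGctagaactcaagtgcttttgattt
RT1-Db1 (chr20:4560183-4560292, minus strand): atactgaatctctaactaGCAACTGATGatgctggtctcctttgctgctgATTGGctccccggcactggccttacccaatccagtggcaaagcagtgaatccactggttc
RT1-Ba (chr20:4576927-4577036, plus strand): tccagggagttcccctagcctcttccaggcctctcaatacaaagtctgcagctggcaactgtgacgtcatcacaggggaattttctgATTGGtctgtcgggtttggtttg
RT1-Bb (chr20:4604139-4604248, minus strand): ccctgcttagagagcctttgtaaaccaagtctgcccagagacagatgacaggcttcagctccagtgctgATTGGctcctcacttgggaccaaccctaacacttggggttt
In windows of 300 bases around gene starts (250 before to 50 after), searched on both strands, the X box form was found in 47 of 33469 promoters (0.1404%) and the Y box core in 12549 (37.49%). Both lay on the same strand within 40 bases of each other in 5 promoters (0.01494%), among them those of RT1-Da and RT1-Db1. The Y box core alone was found in RT1-Ba and RT1-Bb. These matches describe letters and no binding was measured.

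RT1-Da and RT1-Db1, the alpha and beta chains of the DR-like molecule, were chosen for display after their values were seen. RT1-Da was at 305, 146 and 343 CPM in PX 41, 57 and 65 against a lowest, median and highest sham of 15.1, 28.8 and 52.2 CPM (3.19 ± 0.29, adjusted p = 2.82e-06). RT1-Db1 was at 79.1, 39.8 and 101.2 CPM against 4.99, 8.47 and 21.8 CPM (2.94 ± 0.34, adjusted p = 2.38e-05). RT1-Ba and RT1-Bb, of the DQ-like molecule, had log2 fold changes of 3.22 ± 0.23 and 2.79 ± 0.21 (adjusted p = 1.03e-07 and 1.83e-07). Cd74, the invariant chain that guides class II molecules, was at 445, 256 and 579 CPM against 35.8, 54.2 and 95.1 CPM (2.87 ± 0.24, adjusted p = 8.09e-07). B2m, the light chain of class I molecules carried by nearly all cells, was at 703, 738 and 900.3 CPM against 169, 215 and 304 CPM (1.79 ± 0.15, adjusted p = 4.71e-07). PX 57 was the lowest of the 3 for each of these class II genes and for Cd74. Before scaling, the other 8 PX libraries held 647 to 6845 RT1-Da counts, the most in PX 62, of BG 110. PX 41, 57 and 65 held 2004, 1193 and 1699. These counts are not corrected for the library totals given with Txnip above, so they cannot be compared directly. RT1 genes have near-identical copies, so reads may have been split between them.

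Interferon-response genes rose in 12 of 18 cases and fell in none (median 0.92), with 7 rising without PX 65 and 3 under library totals. Gbp2, an interferon-induced GTPase, was even across the 3 PX libraries, at 24.02, 24.2 and 26.3 CPM against 3.84, 5.90 and 7.53 CPM (2.12 ± 0.18, adjusted p = 5.65e-07). Mx1, an antiviral GTPase, was at 8.51, 4.15 and 5.25 CPM against 0.342, 1.45 and 2.68 CPM (2.02 ± 0.36, adjusted p = 5.79e-04). Of interleukin-1, chemokine and NF-kB genes, 7 of 12 tested rose and none fell, and the same number rose without PX 65. Lcn2, lipocalin 2, an iron-binding acute-phase protein, stood out by its evenness, at 67.4, 80.5 and 70.1 CPM against 1.45, 2.60 and 3.91 CPM (4.83 ± 0.17, adjusted p = 1.30e-11). Il1rn, the natural antagonist of interleukin-1, was at 17.3, 6.34 and 32.9 CPM against 0.120, 0.440 and 1.31 CPM (4.99 ± 0.42, adjusted p = 5.11e-07). Ccl2 and Ccl7, which draw monocytes, rose by 4.31 ± 0.37 and 3.52 ± 0.25 (adjusted p = 5.51e-07 and 6.85e-08). The cytokines themselves were scarce: Il1b averaged 2.36 CPM in PX and 0.306 CPM in sham, and Il6 and Tnf stayed at 0.142 CPM or below in both means, so these 3 were not tested.

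All 13 tested complement genes rose, 12 of them also without PX 65 and 11 under library totals (median 2.26). Of the 13, 3 (C1qa, C1qb and C1qc) also stand in the list of macrophage markers. C3, the central component, was at 108.1, 75.6 and 95.2 CPM against 0.255, 0.819 and 8.19 CPM (5.79 ± 0.60, adjusted p = 2.38e-05), and Cfb, of the alternative pathway, at 4.11, 5.37 and 4.44 CPM against 0.198, 0.444 and 0.765 CPM (3.26 ± 0.30, adjusted p = 1.06e-06). C1qc, which macrophages make, was at 39.1, 23.4 and 32.3 CPM against 3.38, 4.67 and 6.99 CPM (2.70 ± 0.21, adjusted p = 1.95e-07). All 17 tested macrophage markers rose, and for 16 every PX library lay above every sham library (median 2.80). Msr1, a scavenger receptor, was at 12.5, 5.98 and 6.87 CPM against 0.168, 0.311 and 0.512 CPM (4.67 ± 0.30, adjusted p = 3.36e-08), and Cd14, the endotoxin co-receptor, at 30.9, 11.96 and 25.3 CPM against 1.34, 2.5034 and 4.70 CPM (3.08 ± 0.27, adjusted p = 5.80e-07). Lyz2, lysozyme, reached 708 CPM in PX 65 from 224 in PX 41 and 116 in PX 57, against 7.23, 9.45 and 33.97 CPM in sham, where sham 46 was the highest (4.81 ± 0.48, adjusted p = 1.85e-05).

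Genes of lipid-associated macrophages rose in all 14 tested cases (median 2.07), 13 of them without PX 65. Spp1, osteopontin, was at 163, 318 and 546 CPM against 0.599, 2.79 and 17.6 CPM (6.13 ± 0.61, adjusted p = 2.30e-05), and duct cells also make it. Gpnmb, a lysosomal glycoprotein, was at 96.2, 14.6 and 66.1 CPM against 0.765, 1.33 and 4.26 CPM (5.13 ± 0.42, adjusted p = 8.74e-07), and Lgals3, galectin-3, at 42.4, 27.6 and 80.01 CPM against 0.839, 1.41 and 1.88 CPM (5.19 ± 0.24, adjusted p = 6.90e-10). Their order within PX differed: PX 41 was the highest for Gpnmb and PX 65 for Spp1 and Lgals3. Lymphocyte markers were near the floor. Of 16, only Cd4, which rat macrophages also carry, and the kinase Lck were tested, and both rose (1.34 ± 0.23 and 1.28 ± 0.27, adjusted p = 4.56e-04 and 0.00222). The defining T and B cell genes Cd3e, Cd3d and Ms4a1 averaged 0.324, 0.489 and 0.101 CPM in PX and 0.0934, 0.0589 and 0.0521 CPM in sham. Summed over the list, the lymphocyte markers came to 41.7, 24.2 and 42.03 CPM against 9.35 to 19.9 CPM. Cd4 alone made up 28.9, 17.1 and 27.3 CPM of these PX sums and 6.39 to 15.5 CPM in sham.

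**Figure D4:**
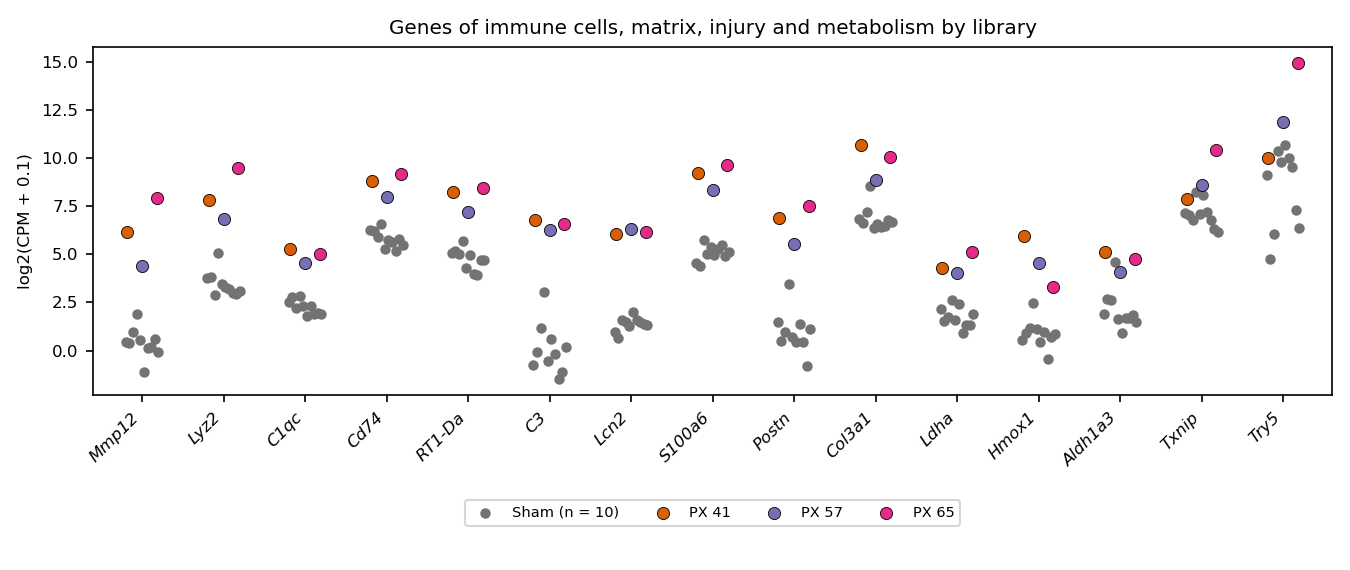
Levels of 15 genes of immune cells, matrix, injury and metabolism in each library, as log2(CPM + 0.1), with sham in grey and the 3 PX libraries in colour. For all but Aldh1a3, Txnip and Try5 the 3 PX libraries lie above every sham library. Sham 46 is the highest sham point for all but Lcn2, S100a6 and Try5.

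Extracellular matrix genes and their proteases rose in 27 of 28 cases, with and without PX 65, and in 19 under library totals (median 2.30). Mmp12, macrophage elastase, had the highest log2 fold change of the called genes at a mean of 10 CPM or more, 6.25 ± 0.52 (adjusted p = 2.46e-06), at 70.9, 20.98 and 239.8 CPM against 0.356, 1.24 and 3.60 CPM. Postn, periostin, a matrix protein of wound repair, was at 117, 45.6 and 179 CPM against 0.479, 1.69 and 11.03 CPM (5.38 ± 0.57, adjusted p = 2.58e-05), and Tnc, tenascin C, at 61.3, 30.3 and 49.9 CPM against 0.892, 1.70 and 4.59 CPM (4.57 ± 0.32, adjusted p = 1.06e-07). Timp1, an inhibitor of matrix proteases, was at 34.4, 24.3 and 15.6 CPM against 0.966, 2.06 and 4.70 CPM (3.51 ± 0.30, adjusted p = 4.92e-07), and Mmp14, a membrane-bound protease, rose by 2.79 ± 0.24 (adjusted p = 5.11e-07). None of these overlapped between the groups. Of the 28 genes, 6 also stand in a cell marker list.

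Of 15 markers of stellate cells, fibroblasts and pericytes, 12 rose and none fell (median 1.94), and 11 rose without PX 65. Col3a1, a fibrillar collagen, was at 1661, 469 and 1049.6 CPM against 83.3, 101.9 and 379.6 CPM (3.01 ± 0.42, adjusted p = 1.96e-04), with sham 46 well above the other sham libraries. Dcn, decorin, and Lum, lumican, collagen-binding proteoglycans, had log2 fold changes of 2.36 ± 0.20 and 3.28 ± 0.34 (adjusted p = 4.13e-07 and 5.66e-06). PX 57 was the lowest of the 3 PX libraries for Col3a1, Dcn and Lum. In the growth factor list, 9 of 19 rose and 3 fell, and 4 rose and 2 fell without PX 65. Igf1 was at 23.3, 9.64 and 32.5 CPM against 3.07, 4.44 and 8.005 CPM (2.14 ± 0.30, adjusted p = 7.34e-05), while its receptor Igf1r was at 55.8, 37.9 and 25.5 CPM against 54.8, 97.1 and 112 CPM (-1.21 ± 0.23, adjusted p = 0.00126), with PX 41 just above the lowest sham.

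Reg family and injury genes rose in 11 of 14 cases, all 11 without overlap and all 11 also without PX 65 (median 2.95). Of the 4 Reg genes tested, secreted lectins of injured pancreas that are named after their values were seen, only Reg3g was among the 11, at 14.9, 30.5 and 14.95 CPM against 0 to 1.38 CPM (adjusted p = 3.75e-06). Reg1a, Reg3a and Reg3b had log2 fold changes of 1.98 ± 1.42, 3.16 ± 1.55 and 3.15 ± 1.59, overlapped with sham and did not pass (adjusted p = 0.298, 0.132 and 0.142). Reg1a was at 1124, 973 and 8850.4 CPM against 9.74, 717 and 4191 CPM, and sham 46 held the highest sham value of all 3. Without sham 46, Reg3a and Reg3b passed (5.17 and 5.69, adjusted p = 0.00546 and 0.0018) and Reg1a did not (2.69, adjusted p = 0.133), and without PX 65 the 3 stood at 0.18, 1.51 and 1.99. S100a6, a calcium-binding protein of dividing and injured cells, was at 597, 328 and 793 CPM against 20.8, 33.4 and 53.2 CPM (4.04 ± 0.23, adjusted p = 1.67e-08). Anxa1, annexin A1, which dampens inflammation, was at 164, 74.3 and 187 CPM against 7.40, 9.03 and 16.8 CPM (3.81 ± 0.23, adjusted p = 1.67e-08). A further 2 genes were named by the size of their rise. Il33, an alarmin stored in nuclei, was at 88.5, 34.2 and 90.7 CPM against 1.40, 2.36 and 4.48 CPM (4.72 ± 0.28, adjusted p = 1.67e-08). Tspan8, a tetraspanin of epithelial cells, was again even, at 44.1, 42.1 and 43.6 CPM against 1.53, 2.02 and 6.01 CPM (4.07 ± 0.27, adjusted p = 4.29e-08).

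Acinar markers had a median log2 fold change of 2.25, yet 4 of 29 passed the test and no member separated the groups, and the sham libraries themselves ranged widely. Without PX 65 none passed and the median was 0.61, and with the acinar score as covariate 2 rose and 1 fell. That score is the mean of these same markers, so the covariate fit cannot test this list. Try5, a trypsin, was at 1009, 3770.5 and 31585 CPM in PX 41, 57 and 65 against 27.3, 644 and 1614 CPM (4.23 ± 1.07, adjusted p = 0.0114; 1.89 and 0.277 without PX 65). Prss2, another trypsinogen, and Spink1, the trypsin inhibitor, had log2 fold changes of 3.46 ± 1.06 and 3.40 ± 0.98, and without PX 65 adjusted p of 0.373 and 0.281. Trypsinogen genes have near-identical copies, so their counts are uncertain one by one. Duct markers rose in 6 of 11 cases, 5 of them without PX 65. Car2, a carbonic anhydrase, was at 18.6, 13.8 and 40.2 CPM against 3.87, 5.12 and 8.07 CPM (2.11 ± 0.27, adjusted p = 2.88e-05), and Cftr, the chloride channel of duct fluid, at 16.4, 5.73 and 34.5 CPM against 0.719, 2.07 and 5.76 CPM (2.85 ± 0.49, adjusted p = 6.87e-04), with PX 57 inside the sham range.

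Endothelial markers rose in 7 of 11 cases, 4 without PX 65 and none under library totals (median 0.55). None was called lower, and the log2 fold changes ran from -0.47 to 1.07. Esam, an endothelial adhesion molecule, and Tie1, a receptor of vessels, rose by 1.07 ± 0.14 and 0.90 ± 0.14 (adjusted p = 3.01e-05 and 2.74e-04). The summed endothelial markers, at 1090.1, 771 and 746 CPM against 535 to 1061 CPM, overlapped between groups (exact permutation test, adjusted p = 0.312). Of 12 alpha cell markers, 3 rose and 3 fell. Slc7a2, an arginine transporter, was at 611, 749.6 and 498 CPM against 652, 1309 and 1393 CPM (-0.97 ± 0.20, adjusted p = 0.00206), and Irx1, an alpha cell factor, had a log2 fold change of -1.40 ± 0.45 (adjusted p = 0.0248) that lost its call without PX 65 (adjusted p = 0.124). Of the 3 list members that rose, Fap and Dpp4 had log2 fold changes of 2.49 and 1.91. Both are proteases that fibroblasts also carry, and the other riser is not reported here. Delta and PP cell markers gave 1 rise and 2 falls among 8, and Schwann cell and neuron markers 1 rise among 6.

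Of the 12 genes of largest fall, Unc5c, a netrin receptor, was at 8.36, 14.6 and 3.23 CPM against 19.6, 59.5 and 79.04 CPM (-2.60 ± 0.41, adjusted p = 3.35e-04), and MAST1, a microtubule-associated kinase, at 3.65, 2.32 and 0.404 CPM against 4.15, 14.7 and 18.2 CPM (-2.54 ± 0.51, adjusted p = 0.00179). The adhesion molecules Cntn3, a contactin, and Nrxn3, a neurexin, had log2 fold changes of -2.49 ± 0.34 and -2.06 ± 0.35 (adjusted p = 5.47e-05 and 3.98e-04). Cabp7, a calcium-binding protein, was at 8.67, 24.3 and 7.68 CPM against 20.1, 72.4 and 92.4 CPM (-2.34 ± 0.43, adjusted p = 0.00118), and Nnat, neuronatin, which supports insulin processing and secretion, at 5.32, 13.5 and 5.86 CPM against 13.98, 35.1 and 46.96 CPM (-2.02 ± 0.35, adjusted p = 5.68e-04). Dnah12, a dynein heavy chain of cilia, Olfm4, a secreted glycoprotein, and Carns1, which makes carnosine, had log2 fold changes of -2.29 ± 0.30, -2.21 ± 0.44 and -2.09 ± 0.31 (adjusted p = 3.44e-05, 0.00186 and 1.42e-04). For Unc5c, Cntn3, Cabp7, Dnah12, Olfm4, Nrxn3 and Nnat the lowest sham value was that of sham 46, and PX 57 was the highest of the 3 PX libraries. Nr1d1 and Per3, of the circadian clock, complete the 12 together with Casr (-2.23 ± 0.47 and -2.09 ± 0.28, adjusted p = 0.00247 and 4.80e-05).

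**Figure D5:**
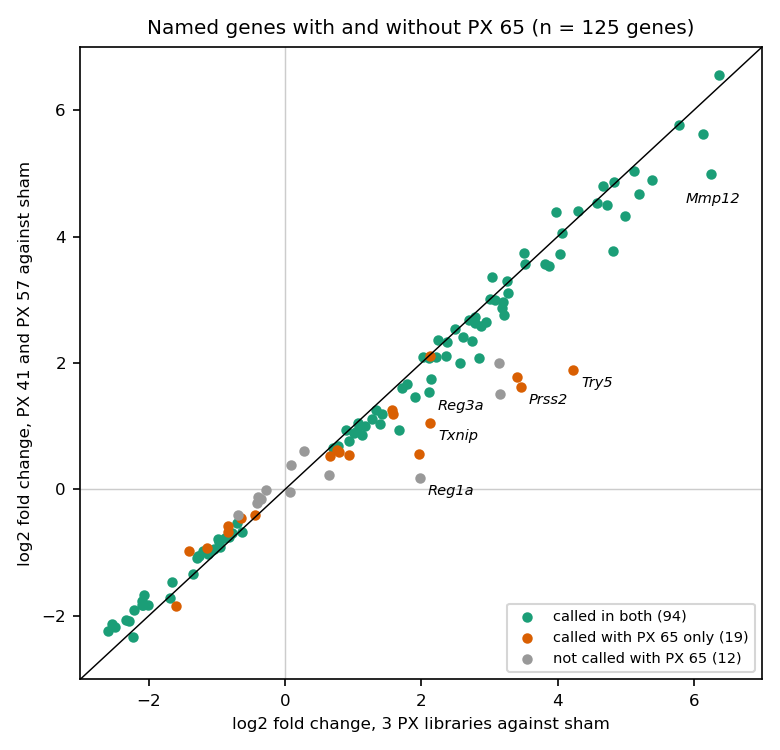
Log2 fold change of the named genes against sham with all 3 PX libraries (horizontal axis) and with PX 41 and PX 57 only (vertical axis), with the line of equality; colours give the calls at an adjusted p of 0.05. 94 genes were called in both, 19 only with PX 65, and Try5, Prss2, Reg1a and Reg3a lie furthest below the line.

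Set against the other 8 PX libraries, no gene of 14326 passed the threshold (0% called; edgeR's quasi-likelihood test on all 21 libraries in 3 groups), and 1948 had an unadjusted p under 0.05. Without PX 65 again no gene passed, and 605 had an unadjusted p under 0.05. DESeq2 called 31 genes, 10 higher and 21 lower, and without PX 41 edgeR called 569, of which 192 were higher and 377 lower. Both PX groups were set against the same sham libraries, so their differences from sham are given side by side only. The beta cell transcription factors had median log2 fold changes of -0.64 in the 3 PX libraries and -0.48 in the other 8, glucose sensing genes of -0.60 and -0.19, exocytosis genes of -0.66 and -0.35, ChREBP-responsive genes of 0.66 and 0.05, respiratory chain subunits of 0.52 and 0.18, and Reg family and injury genes of 2.95 and 1.87. Macrophage markers stood at 2.80 and 2.77, complement at 2.26 and 2.25, and matrix genes at 2.30 and 2.30. Without PX 65, the medians against sham were -0.46 for beta cell transcription factors, -0.26 for glucose sensing genes and -0.50 for exocytosis genes. They were 0.31 for ChREBP-responsive genes, 0.33 for respiratory chain subunits and 2.29 for Reg family and injury genes. The transcription factors and glucose sensing genes then lay near the other 8 PX libraries, while the rest of these lists stayed further from sham.

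Single genes spread likewise. Nkx6-1 had a log2 fold change of -1.27 here and -0.50 in the other PX libraries, whose levels ran from 53.8 to 157 CPM (difference -0.78 ± 0.28 SE, adjusted p = 0.281). For Gpd2 the values were -1.13 and -0.47, and its difference of -0.66 ± 0.14 SE between the 2 PX groups shared the smallest adjusted p of the comparison, 0.274. Gpd1 gave 1.67 and 0.38 (difference 1.29 ± 0.29 SE, adjusted p = 0.274), and Lcn2 4.83 and 3.88 (difference 0.95 ± 0.36 SE, adjusted p = 0.287). Iapp, Sst and Ldha gave 0.76, -1.15 and 2.74 here and 0.49, -1.28 and 2.62 there. Among the respiratory chain subunits, 11 of 25 differed between the PX groups at an unadjusted p under 0.05, against 1930 of the 13801 genes above, and none of them passed after adjustment.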

How the data were processed

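Polyadenylated RNA of rat islets was sequenced in 21 libraries. FastQC, Subread, featureCounts and limma were used by the authors, per the submitters' processing notes, with no versions; the build, aligner settings and strand setting were not given in the sources used here. Per the file headers, the deposited values are whole-number counts of reads per gene name with no normalization. The authors' deposited table of the comparison of all PX with sham was not used. Groups and BG were taken from the sample titles.

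TMM factors were computed once over all 21 libraries with edgeR 4.0.16 in R 4.3.3, genes were kept by filterByExpr (minimum count 10, minimum total 15), and robust quasi-likelihood models were fitted to the 13 libraries, or to all 21 in 3 groups for the comparison of the PX groups. Tests were two-sided, with Benjamini-Hochberg adjustment over all genes tested and a threshold of 0.05. Fold changes are on the log2 scale with their standard errors. With the threshold, a call is a gene at or under it. Library measures were compared by exact permutation of means over the libraries, adjusted over 17 measures. The fits were tested on simulated counts of libraries that differed in depth only, so the acinar share of PX 65 was not part of that test. Alternatives were other scalings and filters, DESeq2 1.42.0, limma 3.58.1 voom, the acinar score (the mean log2 CPM of the acinar markers, prior count 2) as a covariate, parts of the sham group, and fits that drop 1 library at a time; dropping PX 65 with sham 46 was chosen after seeing the data. A change of sign was counted as a reversal where either value was called.

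The members and the 35 gene lists (620 genes) were chosen with earlier results of these data known, so list counts carry no test. Named are, of called genes with a symbol and a mean of 10 CPM or more, the 12 that rose most and the 12 that fell most, the islet hormones and 9 beta cell genes always, and members of each list among its 4 of lowest p; some that the rule gives are not reported here. Promoter sequences are from RefSeq on GRCr8, and all 4 displayed genes matched by symbol. Of 28912 gene names, 2 were listed on 2 rows and summed. Genes with near-identical copies (Ins1 and Ins2, trypsinogens, RT1) and overlapping or antisense genes have uncertain counts. Pairs of libraries of a group differed by a chi-square per degree of freedom of at least 4.12, above the 1 of sampling noise, so none was counted as a repeat.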

Additional observations from a re-analysis of the deposited data

Results flagged for a closer look

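Each named gene was checked for a sham library far from the other 9, by whether the gap of the highest or lowest one to its neighbour, as a share of the whole sham range in log2 CPM, exceeded Dixon's critical value. By chance about 1 in 20 genes would pass. Of 125 genes 21 did, 18 of them in sham 46. That library was the lowest sham for Sst (8.74), Rfx6 (6.65), Casr (3.91), Slc7a2 (9.35), Unc5c (4.31), Cntn3 (3.92), Cabp7 (4.35), Dnah12 (3.51), Olfm4 (3.62), Nrxn3 (3.53) and Nnat (3.83). It was the highest sham for Aldh1a3 (4.63), Vim (5.26), Dnajb11 (7.15), Mcm3 (3.37), Lyz2 (5.10), Postn (3.50) and Col3a1 (8.57). In each of these genes sham 46 was displaced from the other sham libraries in the direction of the PX libraries. The lowest sham for Pyy was sham 22 (1.92) and for Cebpb sham 24 (1.08), and the highest for Reg3g, a gene of few sham counts, was sham 21 (0.72). Sham 46 also had the highest summed macrophage and stellate markers of the sham libraries, and its BG was 97. Without it 2585 genes were higher and 3260 lower in PX, and 4789 of the 4818 calls were kept.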

How the results depend on the processing

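No paired analysis was possible because the PX and sham libraries share no number in their titles. The comparison with sham, at 4818 calls, gave 2303 with the acinar score as a covariate and 1503 against sham 46 to 50 only. Against sham 21, 22, 24, 73 and 74 only, which are as many libraries, it gave 5936. With each library left out it gave between 2264 (without PX 65) and 5845 (without sham 46). No filter on low counts, another filter, DESeq2, limma voom, library totals, size factors and other TMM factors were also tried. So were all 21 libraries in 1 fit and the loss of both PX 65 and sham 46. These settings gave 3575 (library totals) to 5237 (no filter). The comparison with the other PX libraries, at 0 calls, gave 4 with no filter, 31 with DESeq2, 1 with limma voom with and without quality weights, and 0 to 569 with each library left out, the latter without PX 41; the cause was not tested. For 125 named genes under 27 settings, 3229 of 3370 values kept their direction and their side of the threshold, 122 lost the call, 19 gained it (10 of these for Reg3a and Reg3b, both of which limma voom called), and none that was called reversed. Library totals took 20 calls, the loss of PX 65 took 19, sham 46 to 50 took 17, the acinar covariate 15, and the loss of both PX 65 and sham 46 took 12. Without PX 57 the calls of Pyy, Ghrl and Bach2 were also lost (adjusted p = 0.101, 0.0874 and 0.132), and without PX 41 those of Ghrl, Aldh1a3 and Hes1 (adjusted p = 0.144, 0.0569 and 0.0879); Pyy, Ghrl and Hes1 also lost theirs without single sham libraries, at adjusted p of up to 0.0606. With each library left out, PX minus sham in summed CPM ran from 455 to 839 for macrophage, 864 to 1533 for lipid-associated, 20.2 to 29.1 for lymphocyte, 947 to 1912 for stellate and 442 to 1942 for duct markers. These 5 missed the threshold without any 1 PX library, with adjusted p of up to 0.129, where the smallest p is limited by 2 PX libraries. The Schwann cell and neuron markers ran from -44.9 to -24.0 and passed without sham 21 or 49, and the mitochondrial percentage from -2.15 to -1.27, passing without sham 46. Depth limits genes of few counts: lymphocyte markers and most cytokines lay under the count filter.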

Other observations

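Genes of the circadian clock were among the largest falls, and after Nr1d1 and Per3 had been named by size, 6 further clock genes were looked up with their values already seen, so they support nothing beyond themselves. Nr1d1, which encodes the repressor REV-ERB alpha, was at 4.56, 2.68 and 4.44 CPM in PX 41, 57 and 65 against a lowest, median and highest sham of 8.27, 15.4 and 34.7 CPM. Per3, a period gene, was at 11.1, 6.22 and 3.84 CPM against 22.4, 31.5 and 38.2 CPM. Nr1d2, the paralogue of Nr1d1, was at 31.9, 22.1 and 28.7 CPM against 52.3, 89.8 and 125 CPM (log2 fold change -1.69 ± 0.28, SE; edgeR adjusted p = 3.48e-04). The output factor Dbp, its relative Tef and the period gene Per1 had log2 fold changes of -1.35 ± 0.35, -0.82 ± 0.20 and -0.95 ± 0.22 (adjusted p = 0.00851, 0.00653 and 0.00445). In all 6 of these genes every PX library lay below every sham library. Clock also did (-0.44 ± 0.12, adjusted p = 0.00907), whereas Arntl, its partner, was at 43.9, 67.8 and 70.1 CPM against 36.7, 56.1 and 77.9 CPM and did not pass the test (0.08 ± 0.21, adjusted p = 0.788). In the other 8 PX libraries Nr1d1, Per3 and Nr1d2 stood at -0.85, -1.11 and -0.81 on the log2 scale against the same sham libraries. The sample titles give no time of day of collection, and its part in these values was not tested.

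Cartpt, the CART peptide of islet endocrine cells and neurons, was singled out after its values were seen, for its difference between the PX groups. It was at 206, 97.8 and 278 CPM in PX 41, 57 and 65, at 19.9 to 82.1 CPM in the other PX libraries and at 4.41 to 23.05 CPM in sham. Against sham its log2 fold change was 3.88 ± 0.31 (SE; edgeR adjusted p = 7.48e-07) here and 1.80 ± 0.31 in the other PX libraries. The difference between the PX groups of 2.09 ± 0.40 missed the threshold (adjusted p = 0.274).

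The hypoxia response had 3 rises and 1 fall among 13 tested genes and cholesterol synthesis 3 and 3 among 19, with medians of 0.01 and 0.05 against -0.08 for all genes tested.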
